A study of Mus musculus with 4 samples.

Results

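The proteasome and immunoproteasome genes of CT26 cells, a mouse colon carcinoma line, were compared between Control cells and cells in which iRhom1 (gene Rhbdf1) had been knocked out. The members were chosen by symbol alone: every gene named Psma, Psmb, Psmc, Psmd, Psme, Psmf or Psmg followed by a number, with pseudogene names left out. Of the 21677 gene symbols measured, 45 met this rule, in 46 rows, since Psmd5 has 2 rows that were summed. The annotation holds 49 such genes, and Psma8, Psmb11, Psme2b and Psmg3 have no row and were not analysed here. Bulk RNA was sequenced from cells grown in RPMI medium with serum, without treatment after the knockout. Control cells gave the libraries S17 and S19, and iRhom1 KO cells the libraries S18 and S20. The KO cells came from a lentiviral CRISPR vector with Cas9 and puromycin resistance and were grown from a single clone, so the genotype and the clone cannot be told apart. The labels name the other group Control and the study's methods a control sample, while the legend of its RNA pathway figure names WT cells. The study describes a cloned line with the empty vector separately. If the Control cells were WT cells, the lentiviral vector and Cas9 cannot be told apart from the genotype either. It calls its RNA sequencing results representative of independent experiments, but the sources do not tie single libraries to them. Where both libraries of a group came from 1 culture, p-values measure only the spread between these libraries, which may be technical.

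The proteasome is the protease that degrades proteins tagged with ubiquitin. Its 20S core is a barrel of alpha rings (Psma genes) around beta rings (Psmb genes), and Psmb5, Psmb6 and Psmb7 carry the active sites. The 19S particle caps the barrel, where its lid and base bind and deubiquitinate the substrate and a ring of ATPases (Psmc genes) unfolds it. Interferon gamma induces Psmb8, Psmb9 and Psmb10, which take the places of Psmb5, Psmb6 and Psmb7 in newly built cores. The resulting immunoproteasome, and the PA28 activator made of Psme1 and Psme2, are known for producing peptides that bind MHC class I, which is why these genes matter to tumour cells as targets of T cells.

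The values are FPKM, fragment counts divided by transcript length and by the number of mapped fragments, so levels can be set side by side between genes. The spacing of the low values, sought only within a fixed range, put the depth at about 49900000 to 53700000 fragments a library. A depth outside that range could not have been found. The targeted gene gave no clear check of the labels. Rhbdf1 was listed at 0.538 and 0.890 FPKM in Control and 0.0940 and 0.0584 FPKM in iRhom1 KO libraries, but 3 of these 4 values equal those of the unrelated gene Apobec2. Of 10 leukocyte markers 5 had a row, with a summed level of 5.23 and 5.45 FPKM in Control and 2.93 and 2.27 FPKM in iRhom1 KO libraries. Ptprc, which defines leukocytes, was at 0.00630 FPKM or less in each library, and Csf1r and Itgax at 0.0643 FPKM or less. Cd68, a lysosomal protein abundant in macrophages, was at 3.36 and 3.36 FPKM in Control and 0.677 and 0.830 FPKM in iRhom1 KO libraries (log2 fold change -1.62, adjusted p = 0.004). Lyz2 was at 1.82 and 2.02 FPKM in Control and 2.24 and 1.42 FPKM in iRhom1 KO libraries (-0.08, adjusted p = 0.777). Of 9 markers of colon carcinoma epithelium 5 had a row, and their summed level was 18.8 and 19.9 FPKM in Control against 38.0 and 36.8 FPKM in iRhom1 KO libraries. The epithelial markers Epcam, Cdh1, Krt19 and Lgals4 had no row, Vil1 was at 0.0163 FPKM or less, and Krt8, a keratin of simple epithelia, was at 0.0278 and 0 FPKM in Control and 6.80 and 7.03 FPKM in iRhom1 KO cells. The part of these marker differences in the results was not tested.

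Sequence near the start of catalytic subunit genes is shown first, for Psmb8 and Psmb9, on which the results turn, and for the partners whose places they take. The stretches come from RefSeq on GRCm38.p6, in windows from 250 bases before to 50 after each start site, and 38 of the 45 members had such a window. The motif searched is in capitals. The Psmb8 stretch lies at chr17:34198088-34198116 on the plus strand, at positions -107 to -79 with -1 the last base before the RefSeq start, and holds the core of the gamma-activated sequence, TTCNNNGAA. Longer Psmb8 transcripts cover it, so these bases are also annotated as UTR.
Psmb8: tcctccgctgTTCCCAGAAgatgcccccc
The Psmb9 stretches lie on the minus strand at chr17:34187370-34187395, with a GC box (GGGCGG), and at chr17:34187331-34187348, with a CCAAT box read on the other strand, and both also fall within annotated UTR of longer transcripts.
Psmb9 GC box: cgcgatgatgGGGCGGggcctcagtc
Psmb9 CCAAT box: gcagccgctgATTGGaaa
The constitutive partners Psmb5 (chr14:54618024-54618052, minus strand) and Psmb6 (chr11:70525338-70525356, plus strand) hold the core of the antioxidant response element, TGACNNNGC, which NFE2L1 and NFE2L2 with small MAF proteins recognise.
Psmb5: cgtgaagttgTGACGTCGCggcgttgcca
Psmb6: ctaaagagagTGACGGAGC

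A member was counted when any of its windows matched, and the 38 members had 41 windows, whereas the background counts single windows. Counted on both strands, TTCNNNGAA was in 3 of the 38 members (7.89%: Psmb8, Psmd2 and Psmg1) and in 8.30% of all 32851 windows. The core of the interferon-stimulated response element was taken as a pair of GAAA runs with 2 bases between them. It was in 5 members (13.2%: Psmb3, Psmd4, Psmd9, Psme1 and Psmg4) and in 3.44% of all windows. TGACNNNGC was in 6 members (15.8%) against 12.4% of all windows, CCAAT in 13 members (34.2%) against 37.4%, and GGGCGG in 23 members (60.5%) against 35.7%. In Psmd9 the TGACNNNGC match overlapped a match to another of these motifs. These are matches of letters and not sites shown to be bound. Psmb9 and Tap1, which carries 1 chain of the peptide transporter, lie head to head with 225 bases between their RefSeq starts, so that each window contains bases of the other.

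Among the inducible subunits, Psmb8 and Psmb9 were higher in iRhom1 KO cells, while Psmb10 was not called and its values lay below those of Control. A gene was called when limma's adjusted p, over the 10271 genes whose mean reached 1 FPKM in either group, was under 0.05. The fold changes tested are on the scale of log2(FPKM + 0.5), iRhom1 KO minus Control, so they understate the change of low genes. The median of all genes tested was -0.10 on this scale.

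Psmb8, the inducible chymotrypsin-like subunit (also called LMP7; chr17:34197721-34201454), was at 5.87 and 6.54 FPKM in Control and 9.98 and 10.1 FPKM in iRhom1 KO libraries. Both KO libraries lay above both Control libraries, and the 2 KO values were closer together than the Control values. The mean was 1.62 times as high in iRhom1 KO cells, with a log2 fold change of 0.65 ± 0.0789 (SE, 2 libraries a group) and an adjusted p of 0.00995 in limma. Without S20 the adjusted p was 0.0513. In bulk RNA a higher level per cell and a larger share of cells that carry the transcript cannot be told apart, here or for the genes that follow.

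Psmb9, which replaces Psmb6 and is also called LMP2 (chr17:34181987-34187764), had the lowest Control mean of the 45 genes. It was at 0.588 and 1.25 FPKM in Control and 2.43 and 3.59 FPKM in iRhom1 KO libraries, which at the estimated depths corresponds to about 31.6, 64.6, 121 and 182 fragments per kilobase. The groups did not overlap, but the libraries of each group stood well apart. The mean was 3.28 times as high, and the log2 fold change was 1.33 ± 0.293 (SE) with an adjusted p of 0.0337. Psmb9 reached the level required for testing only through the iRhom1 KO group. It was not called without S20 (adjusted p = 0.141), without S18 (0.0778) or when no filter on low values was used (0.0723).

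Psmb10, the inducible counterpart of Psmb7 (also called MECL-1; chr8:105935735-105938444), was at 10.8 and 11.2 FPKM in Control and 8.68 and 9.94 FPKM in iRhom1 KO libraries. The groups did not overlap, in the direction opposite to Psmb8 and Psmb9. The log2 fold change was -0.23 ± 0.0890 (SE), with an adjusted p of 0.114. Whether the change of Psmb10 differed from that of Psmb8 or Psmb9 was not tested.

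The PA28 alpha gene Psme1 (chr14:55578123-55581529) was at 26.8 and 30.7 FPKM in Control and 35.0 and 32.8 FPKM in iRhom1 KO libraries. Its log2 fold change was 0.23 ± 0.0914 (SE), with an adjusted p of 0.118. The PA28 beta gene Psme2 (chr14:55587441-55591113) was at 40.1 and 37.4 FPKM in Control and 40.9 and 45.2 FPKM in iRhom1 KO libraries, a log2 fold change of 0.15 ± 0.0811 (SE) and an adjusted p of 0.226. For both genes the KO libraries lay above the Control libraries, by less than the model needed for a call. Psme1 was called with trimmed mean scaling (log2 fold change 0.34, adjusted p = 0.0397) and with quantile normalization (0.36, adjusted p = 0.0334). Psme2 has a near-identical copy, Psme2b, so its level is uncertain. The summed level of the PA28 pair was 67.0 and 68.2 FPKM in Control and 75.8 and 78.0 FPKM in iRhom1 KO libraries.

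**Figure D1:**
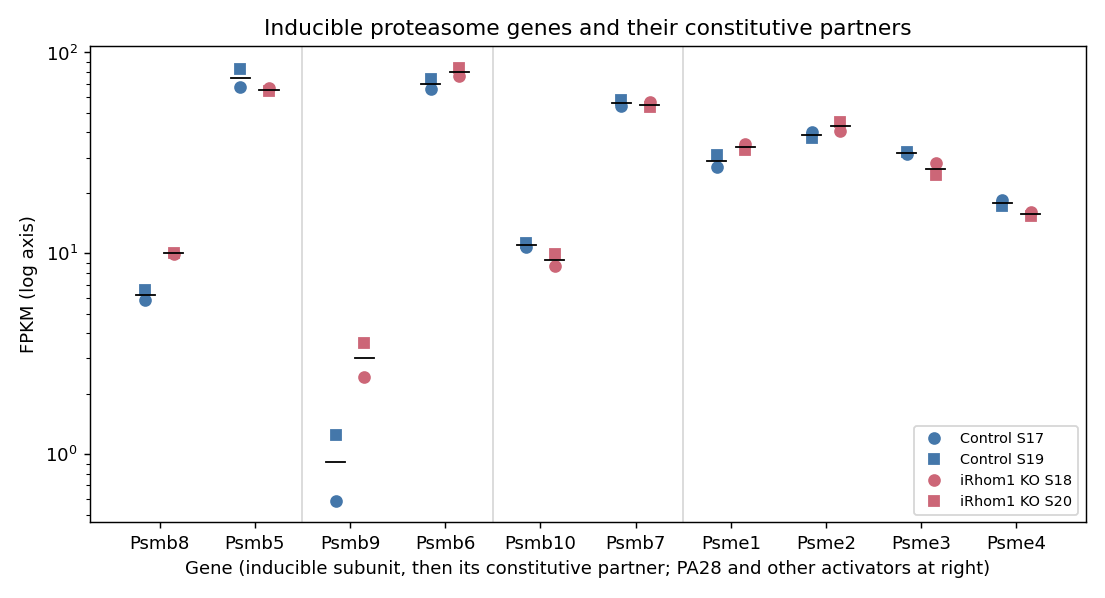
FPKM on a log axis of the inducible genes, their constitutive partners and the other activators in each library (circles and squares, Control in blue and iRhom1 KO in red; short lines, group means). Psmb8 and Psmb9 sit higher in both iRhom1 KO libraries, at 9.98 and 10.1 FPKM and at 2.43 and 3.59 FPKM, and Psmb10 sits lower.

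The genes whose places they take were not called in either direction, and none of the 3 had an unadjusted p under 0.05 in limma. Psmb5 (chymotrypsin-like) was at 67.0 and 82.7 FPKM in Control and 66.7 and 64.0 FPKM in iRhom1 KO libraries, a log2 fold change of -0.19 with an adjusted p of 0.274, and the 2 Control libraries were farther apart than the group means. Psmb6 (caspase-like) was at 65.6 and 73.9 FPKM in Control and 76.0 and 84.1 FPKM in iRhom1 KO libraries (log2 fold change 0.20, adjusted p = 0.173). Psmb7 (trypsin-like) was at 54.2 and 57.7 FPKM in Control and 56.4 and 53.5 FPKM in iRhom1 KO libraries, and its groups overlapped (log2 fold change -0.03, adjusted p = 0.795). The sign of Psmb7 turned under both other scalings, where its log2 fold change was 0.08 and 0.06.

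The inducible subunits were a minor fraction of the catalytic transcripts in both groups. Psmb8 made up 8.05% and 7.32% of the FPKM of Psmb8 and Psmb5 in Control and 13.0% and 13.6% in iRhom1 KO libraries, a difference of 5.63 percentage points between the group means. Psmb9 made up 0.889% and 1.66% of Psmb9 and Psmb6 in Control and 3.10% and 4.09% in iRhom1 KO libraries. Psmb10 made up 16.6% and 16.3% of Psmb10 and Psmb7 in Control and 13.3% and 15.7% in iRhom1 KO libraries. The shares of Psmb8 and Psmb9 were higher and that of Psmb10 lower in both iRhom1 KO libraries. The 3 inducible genes together made up 8.44% and 8.14% of the 6 catalytic genes in Control and 9.57% and 10.48% in iRhom1 KO libraries. These shares are values without a test, since the smallest two-sided p of an exact permutation test would be 0.333 with so few libraries.

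**Figure D2:**
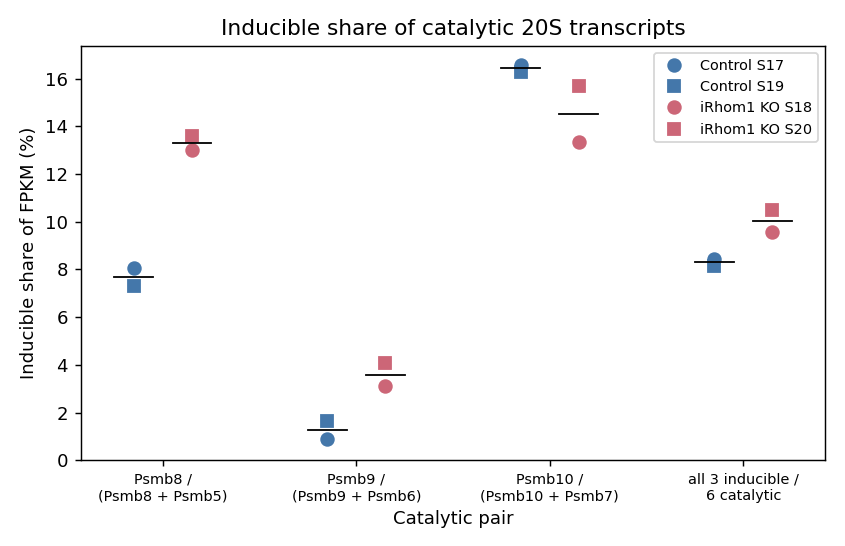
Share of FPKM held by the inducible gene in each catalytic pair, and by the 3 inducible genes among the 6 catalytic genes, in percent per library (Control in blue, iRhom1 KO in red; short lines, group means). The Psmb8 share lies at 7.32% to 8.05% in Control and 13.0% to 13.6% in iRhom1 KO libraries, and the Psmb10 share is the only one lower in iRhom1 KO.

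Over the whole complex, 3 of the 45 genes were called higher (Psmb8, Psmb9 and Psmd5) and 11 lower, against 10.7% of all genes tested called higher and 21.9% called lower. Psmb9 counts among the 3 although it was tested only through its level in the KO group. The 11 were Psma2, Psmc4, Psmc5, Psmd1, Psmd2, Psmd3, Psmd6, Psmd7, Psmd9, Psmd13 and Psmf1. The median log2 fold change of the 45 genes was -0.08, against -0.10 over all genes tested, so the members' median lay close to that of the background. Both iRhom1 KO libraries lay above both Control libraries for 16 members and below them for 23, where 25.9% and 46.1% of all genes tested did so. The balance of calls depended on how the libraries were scaled. With trimmed mean scaling 11 members were called higher and 4 lower, against 16.6% and 15.7% of all genes tested, and with quantile normalization 6 and 4, against 15.6% and 15.1%. These scalings moved the median of all genes by 0.10 on the log2 scale. Fewer members were called in each direction when any 1 library was left out. Such a fit leaves a lone sample in 1 group, and the share of all genes called in it is not given here. This fall can therefore not be read as a trait of the members.

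**Figure D3:**
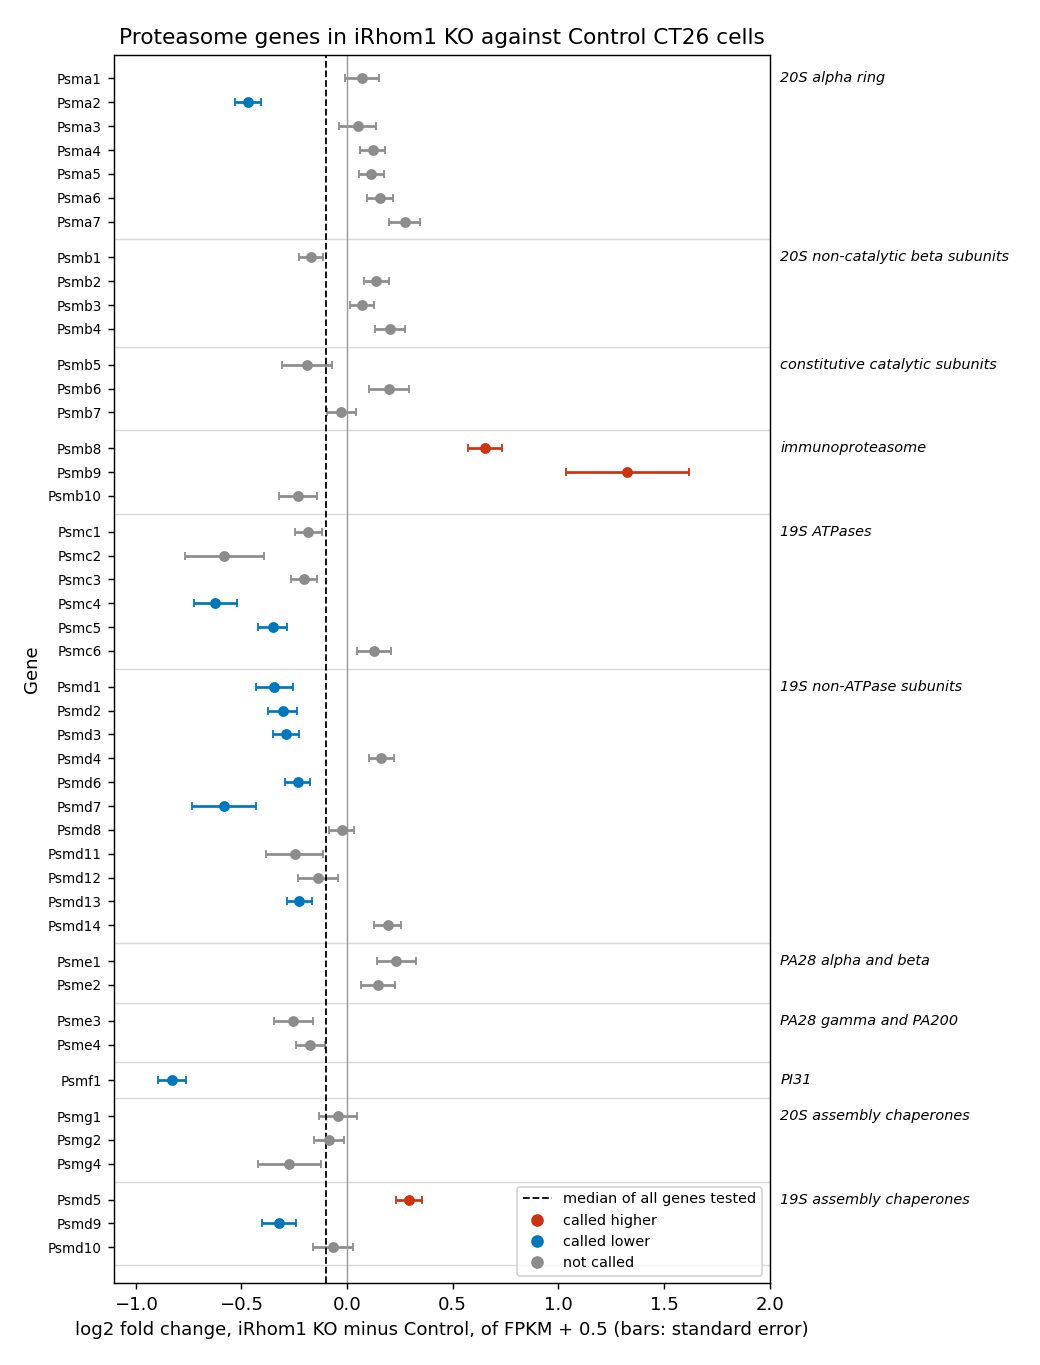
Log2 fold change (iRhom1 KO minus Control, of FPKM + 0.5) of the 45 proteasome genes by subunit group, with bars for limma's standard error, red for genes called higher, blue for lower and grey for not called. Most alpha and beta genes sit right of the dashed median of all genes tested (-0.10), while most 19S genes sit left of it.

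The constitutive 20S core held high levels in both groups, with Control means from 44.7 FPKM for Psmb1 to 130 FPKM for Psma5. Of its 14 genes limma called 0 higher and 1, Psma2, lower, while 2 and 2 had an unadjusted p under 0.05. Their median log2 fold change was 0.09, and the iRhom1 KO libraries lay above Control for 8 of them and below for 3. Over all genes tested, 10.7% were called higher and 21.9% lower, and 15.7% and 31.3% were so at an unadjusted p under 0.05. The KO libraries lay above Control for 25.9% of all genes tested and below for 46.1%. Psma2, an alpha ring subunit, was at 61.1 and 64.1 FPKM in Control and 46.1 and 44.1 FPKM in iRhom1 KO libraries. It was the 1 alpha gene with both KO libraries below Control, with a log2 fold change of -0.47 ± 0.0636 (SE) and an adjusted p of 0.0121, and stayed called without each library in turn (adjusted p up to 0.0484). Psma2 lies on chromosome 13, where the median log2 fold change of 421 tested genes was -0.37, and with the medians of the chromosomes subtracted its own was -0.10 (adjusted p = 0.313).

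At the other end of the ring Psma7 was at 60.6 and 66.0 FPKM in Control and 74.9 and 78.1 FPKM in iRhom1 KO libraries. Its log2 fold change of 0.27 missed the threshold narrowly (adjusted p = 0.05004), and it was called under trimmed mean scaling (adjusted p = 0.0287). Among the non-catalytic beta subunits Psmb4 had the highest log2 fold change, 0.20, from 98.2 and 103 FPKM to 111 and 120 FPKM, and Psmb1 the lowest, -0.17, from 44.0 and 45.3 FPKM to 39.6 and 39.6 FPKM. Neither was called (adjusted p = 0.0941 and 0.0869). With the chromosome medians subtracted Psmb1, also on chromosome 17, had a log2 fold change of 0.21. Under trimmed mean scaling 5 core genes were called higher and 1 lower, against 16.6% and 15.7% of all genes tested.

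The 19S particle held more genes called lower than the core. Of its 17 subunits limma called 0 higher and 8 lower, while 2 and 11 had an unadjusted p under 0.05, and the iRhom1 KO libraries lay below Control for 13 and above for 3. Over all genes tested 10.7% were called higher and 21.9% lower, and 15.7% and 31.3% were so at an unadjusted p under 0.05. The KO libraries lay above Control for 25.9% of all genes tested and below for 46.1%. The median log2 fold change of the 17 subunits was -0.23. With trimmed mean scaling the median was -0.12, with 2 genes called higher and 2 lower, against 16.6% and 15.7% of all genes tested. The number of lower 19S genes therefore rests on the scaling. Both genes kept lower with trimmed mean scaling were ATPases.

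Psmc4, an ATPase of the 19S base (chr7:28041707-28050101), was at 24.0 and 22.7 FPKM in Control and 16.3 and 13.7 FPKM in iRhom1 KO libraries. The groups lay far apart, with a log2 fold change of -0.62 ± 0.102 (SE) and an adjusted p of 0.0180. Psmc4 was called lower under each of 13 alternatives, with adjusted p up to 0.0473. Psmc5, another ATPase of the ring, was at 53.0 and 51.5 FPKM in Control and 42.4 and 39.3 FPKM in iRhom1 KO libraries, a log2 fold change of -0.35 with an adjusted p of 0.0253. Psmc5 was not called without S17 (adjusted p = 0.105), S19 (0.0760) or S20 (0.0616). Psmc2, named here after its values were seen, was at 14.9 and 16.7 FPKM in Control and 12.5 and 8.68 FPKM in iRhom1 KO libraries, and with KO libraries this far apart its log2 fold change of -0.58 was not called (adjusted p = 0.0783). Psmc6 was the 1 ATPase with both KO libraries above Control, at 86.1 and 81.4 FPKM in Control and 96.3 and 87.1 FPKM in iRhom1 KO libraries (log2 fold change 0.13, adjusted p = 0.263).

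Among the non-ATPase subunits Psmd7, a partner of the deubiquitinase Psmd14 in the lid, had the lowest log2 fold change. It was at 48.9 and 49.1 FPKM in Control and 37.7 and 28.1 FPKM in iRhom1 KO libraries, so the KO libraries differed from each other by almost as much as S18 did from Control. The log2 fold change of Psmd7 was -0.58 ± 0.153 (SE) with an adjusted p of 0.0498, and it lost the call in 7 of 13 alternatives. Among these were trimmed mean scaling (adjusted p = 0.0554), quantile normalization (0.0538) and the subtraction of chromosome medians (0.0867). The fits without S17 and without S19 were also among them. Psmd14 itself lay the other way, at 108 and 106 FPKM in Control and 126 and 118 FPKM in iRhom1 KO libraries. It was the highest of the group at 0.19 and was not called (adjusted p = 0.0879), though trimmed mean scaling gave an adjusted p of 0.0232.

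The scaffold subunits Psmd1 and Psmd2 of the base and the lid subunits Psmd3, Psmd6 and Psmd13 were lower by smaller amounts. Psmd1 was at 16.2 and 16.2 FPKM in Control and 13.5 and 11.8 FPKM in iRhom1 KO libraries (log2 fold change -0.34, adjusted p = 0.0456). Psmd2 was at 51.0 and 48.6 FPKM in Control and 41.6 and 38.9 FPKM in iRhom1 KO libraries (-0.30, adjusted p = 0.0358). In both base scaffolds the KO libraries lay below the Control libraries. Psmd3 was at 14.6 and 14.5 FPKM against 12.0 and 11.6 FPKM (-0.29, adjusted p = 0.0313). Psmd6 was at 46.2 and 47.0 FPKM against 40.3 and 38.9 FPKM (-0.23, adjusted p = 0.0455). Psmd13 was at 26.8 and 25.9 FPKM against 22.5 and 22.5 FPKM (-0.23, adjusted p = 0.0494). None of these 5 genes was called under trimmed mean scaling or without S17, S19 or S20, and only Psmd1 was called without S18. Their highest adjusted p with a library left out was 0.131 for Psmd1, 0.164 for Psmd2, 0.161 for Psmd3, 0.222 for Psmd6 and 0.273 for Psmd13.

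Summed over each subcomplex, the 20S core was at 1088 and 1127 FPKM in Control and 1178 and 1155 FPKM in iRhom1 KO libraries, and the 19S particle at 810 and 806 FPKM in Control and 773 and 713 FPKM in iRhom1 KO libraries. The sum of the core differed by 5.33% and that of the 19S particle by -8.01% in iRhom1 KO cells. These sums depended on the scaling: the log2 ratio was 0.07 for the core and -0.12 for the 19S particle, and 0.18 and -0.0123 with trimmed mean scaling or 0.13 and -0.0433 with quantile normalization. The ratio of mean FPKM per subunit, 19S over 20S, was 0.613 and 0.589 in Control and 0.541 and 0.508 in iRhom1 KO libraries. Since it is taken within a library, this ratio does not change with a factor applied to the whole library. The 2 groups did not overlap in it, and no test was made.

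**Figure D4:**
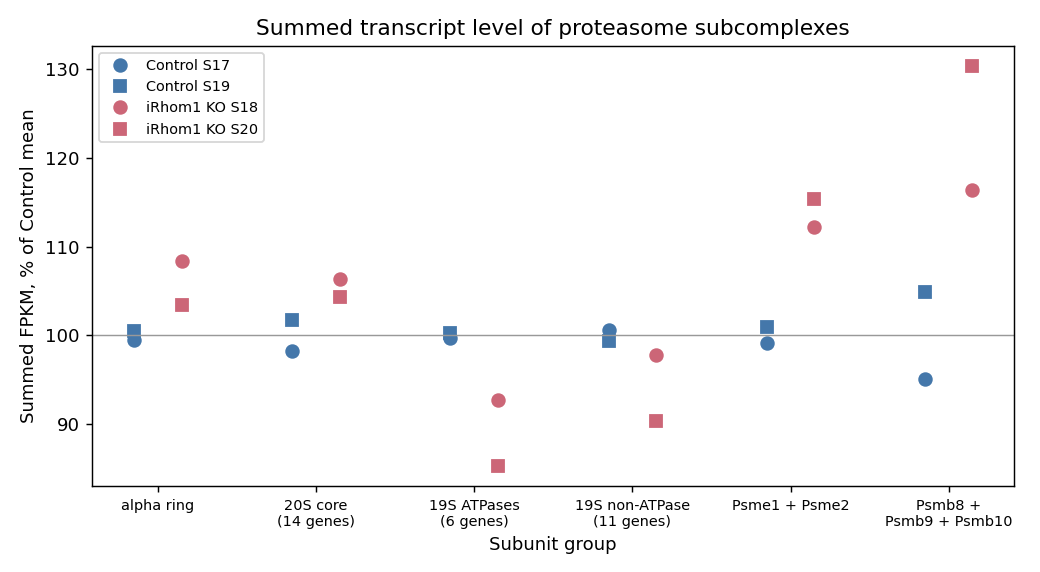
Summed FPKM of each subunit group as a percentage of its Control mean, per library (Control in blue, iRhom1 KO in red; the grey line marks the Control mean). The iRhom1 KO libraries lie above Control for the 20S core, PA28 and the inducible core subunits, and below it for both parts of the 19S particle.

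The largest fall was that of Psmf1, which encodes PI31, a protein first described as a proteasome inhibitor and also linked to proteasome transport and assembly (chr2:151715812-151744186). It was at 5.18 and 5.19 FPKM in Control and 2.72 and 2.69 FPKM in iRhom1 KO libraries. The libraries of each group were nearly equal, and the mean in iRhom1 KO cells was 0.521 times that of Control. The log2 fold change was -0.83 ± 0.0668 (SE) with an adjusted p of 0.00563, and Psmf1 was called lower under each of 13 alternatives (adjusted p up to 0.0426). The median over the 813 tested genes of chromosome 2 was -0.07.

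The activators without an inducible role were not called. Psme3, the nuclear PA28 gamma, was at 31.1 and 31.9 FPKM in Control and 28.3 and 24.5 FPKM in iRhom1 KO libraries (log2 fold change -0.25, adjusted p = 0.0974), and without S18 it was called lower (adjusted p = 0.0462). Psme4, the PA200 cap, was at 18.3 and 17.3 FPKM in Control and 16.1 and 15.3 FPKM in iRhom1 KO libraries (-0.17, adjusted p = 0.122). Both lay below Control in both KO libraries, where Psme1 and Psme2 lay above it.

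The assembly chaperones went in different directions. Psmd5, which holds ATPases of the base during assembly, was at 25.8 and 26.0 FPKM in Control and 32.6 and 31.2 FPKM in iRhom1 KO libraries (log2 fold change 0.29, adjusted p = 0.0290). Psmd9, another chaperone of the base, was at 4.83 and 5.27 FPKM in Control and 4.04 and 3.84 FPKM in iRhom1 KO libraries (-0.32, adjusted p = 0.0432). Neither was called when any 1 library was left out, with adjusted p up to 0.141 for Psmd5 without S17 and 0.215 for Psmd9 without S19. Psmd9 lies on chromosome 5, where the median of 664 genes was -0.23, and its log2 fold change was -0.09 with the chromosome medians subtracted. The 20S assembly chaperones Psmg1, Psmg2 and Psmg4 were not called, from -0.04 for Psmg1 (18.4 and 18.3 FPKM against 19.1 and 16.6 FPKM) to -0.27 for Psmg4 (22.4 and 24.2 FPKM against 16.7 and 22.1 FPKM). The sign for Psmg1 turned under both other scalings.

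Psmb8 and Psmb9 lie in a stretch of the genome whose genes were lower overall. Chromosome 17 had a median log2 fold change of -0.38 over 487 tested genes, and the 116 tested genes within 5 Mb of Psmb8 and Psmb9 a median of -0.36. With the chromosome medians subtracted the log2 fold change was 1.03 for Psmb8 (adjusted p = 0.00594) and 1.71 for Psmb9 (adjusted p = 0.0233), which again passed the level required for testing only through the iRhom1 KO group. Chromosome 15, on which no member lies, had a median of -0.33 over 407 tested genes. The lower medians of chromosomes 5, 13, 15 and 17 in the KO clone cannot be told apart from an effect of iRhom1 loss in these data.

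Further genes of the pathway were sought in 5 lists of 61 symbols. These hold 2 names each for Sem1 (Shfm1), Ecpas (AI314180), Ufd1 (Ufd1l) and Nrd1 (Nrdc), which had a row under the first name only. Of the 61 symbols 49 had a row and 47 were tested. Of these 6 were called higher and 10 lower, with a median log2 fold change of -0.08, close to the 10.7% and 21.9% called and the median of -0.10 over all genes tested. With trimmed mean scaling the counts were 9 and 5, against 16.6% and 15.7% of all genes tested. With quantile normalization they were 9 and 4, against 15.6% and 15.1%. Of 8 tested interferon pathway genes that act on the immunoproteasome, limma called 2 higher and 0 lower, against 10.7% and 21.9% of all genes tested. At an unadjusted p under 0.05 in limma 4 were higher and 0 lower, against 15.7% and 31.3% of all genes tested. Irf1, the transcription factor that drives the inducible subunits, was at 4.32 and 4.46 FPKM in Control and 8.10 and 7.33 FPKM in iRhom1 KO libraries (log2 fold change 0.75, adjusted p = 0.00838). Jak2, a kinase of the interferon gamma receptor, was at 12.9 and 12.4 FPKM against 17.7 and 15.4 FPKM (0.37, adjusted p = 0.0397), and was not called without S17, S18 or S19 (adjusted p = 0.0894, 0.0685 and 0.122). Nlrc5, the activator of MHC class I genes, was at 1.69 and 1.86 FPKM against 2.02 and 1.88 FPKM (0.11, adjusted p = 0.384). Irf1 stayed called without each library in turn, with adjusted p up to 0.0426. Stat2, Irf9 and Jak1 have no row and were not analysed here.

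Next to Psmb9, Tap1 was at 3.52 and 3.63 FPKM in Control and 5.23 and 6.44 FPKM in iRhom1 KO libraries (log2 fold change 0.63, adjusted p = 0.0224), while Tap2, the other chain of the transporter, was at 7.89 and 7.56 FPKM against 8.24 and 7.67 FPKM (0.04, adjusted p = 0.699). Of 12 genes of peptide transport and trimming 1, Tap1, was called higher and 4 lower, against 10.7% and 21.9% of all genes tested. These were Erap1 (-0.38), the aminopeptidase that trims peptides in the endoplasmic reticulum, Lnpep (-0.44), Lap3 (-0.26) and the transporter's partner Tapbp (-0.36). Erap1 was at 12.5 and 11.8 FPKM in Control and 9.80 and 8.67 FPKM in iRhom1 KO libraries (adjusted p = 0.0355), and was called with a library left out only without S18 (adjusted p = 0.0451, against 0.128 without S17). Lnpep was not called without S17 or S19 (adjusted p = 0.0603 and 0.0569), and Lap3 and Tapbp in no fit that left out a library (adjusted p up to 0.181 and 0.174). All 4 lie on chromosome 17, 13 or 5 and were not called with the chromosome medians subtracted. Lap3 and Tapbp were also not called with trimmed mean scaling (limma's adjusted p = 0.114 and 0.101) or quantile normalization (0.114 and 0.121). Erap1 was not called with quantile normalization (0.0628).

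Among the regulators of proteasome genes, Nfe2l1, which raises the transcription of proteasome genes when the protease is short, was at 6.49 and 8.26 FPKM in Control and 10.3 and 12.8 FPKM in iRhom1 KO libraries. Its log2 fold change was 0.61 with an adjusted p of 0.0497, and it was not called without S17 (0.0947), S18 (0.0781) or S20 (0.170). Ddi2, the protease that activates the Nfe2l1 protein, was lower, from 7.06 and 6.99 FPKM to 5.31 and 5.26 FPKM (-0.38, adjusted p = 0.0186), and not without S17 (0.0949), S19 (0.0867) or S20 (0.0545). The values of Nfe2l1 and Ddi2 went in opposite directions. Of the 6 regulators limma called 1 higher and 1 lower, against 10.7% and 21.9% of all genes tested.

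Of 9 tested other proteasome factors, limma called 2 lower and 0 higher, against 21.9% and 10.7% of all genes tested. At an unadjusted p under 0.05 in limma 3 were lower and 1 higher, against 31.3% and 15.7% of all genes tested. Pomp, the maturation factor of the 20S core, was at 24.8 and 24.6 FPKM against 20.1 and 19.8 FPKM (-0.30, adjusted p = 0.0255), and Ube3c, a ubiquitin ligase of the proteasome, at 17.2 and 16.4 FPKM against 13.6 and 13.2 FPKM (-0.31, adjusted p = 0.0284). Both lie on chromosome 5 and neither was called with the chromosome medians subtracted or with any 1 library left out. Neither was called with trimmed mean scaling (limma's adjusted p = 0.0643 for Pomp and 0.0667 for Ube3c) or with quantile normalization (0.103 and 0.0912).

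Of 12 ubiquitin genes and shuttles, 2 were called higher and 3 lower, where 10.7% and 21.9% of all genes tested were. Rad23b, a shuttle that carries tagged proteins to the 19S particle, was higher, from 63.6 and 61.0 FPKM to 90.2 and 79.8 FPKM (0.44, adjusted p = 0.0239). The 27 other tested genes within 5 Mb of Rad23b had a median log2 fold change of 0.23, where chromosome 4 had -0.03. The part of this region in the change of Rad23b was not tested. Of the ubiquilin shuttles, Ubqln1 and Ubqln4 were lower. Ubqln2, named here after its values were seen, was not called (log2 fold change -0.006, adjusted p = 0.961). It was at 1.46 and 1.60 FPKM in Control and 1.49 and 1.54 FPKM in iRhom1 KO libraries. Ubqln1 was at 54.6 and 54.4 FPKM against 39.2 and 35.6 FPKM (-0.54, adjusted p = 0.0119) and Ubqln4 at 22.5 and 21.4 FPKM against 15.4 and 16.5 FPKM (-0.45, adjusted p = 0.0169). Nploc4, a cofactor of the VCP segregase, was lower by less (-0.33, adjusted p = 0.0397). Ubqln1, on chromosome 13, stayed called without each library in turn and was not called with the chromosome medians subtracted (adjusted p = 0.159). Rad23b was not called without S19 (adjusted p = 0.0644) and Ubqln4 not without S17 (0.0662). Nploc4 was called with a library left out only without S18. It was not called with trimmed mean scaling (limma's adjusted p = 0.0556) or quantile normalization (0.0809).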

How the data were processed

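RNA of 2 Control and 2 iRhom1 KO libraries was sequenced. Per the labels and the study's methods, the authors used HISAT2 and StringTie with the genome build GRCm38, and tool versions are not given in the sources used here. The deposited values are FPKM per gene and library, and no further scaling between libraries is stated. The authors' fold and log2 columns were not used. Column names gave the group of each column but no replicate number. The 21724 rows became 21677 symbols after 19 unnamed rows were dropped and 54 rows of 26 shared symbols were summed.

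The 10271 genes whose mean reached 1 FPKM in either group were tested on log2(FPKM + 0.5) with limma 3.58.1 in R 4.3.3 (eBayes with trend, not robust), with Benjamini-Hochberg adjustment over all genes tested and a threshold of 0.05. The script was tested on simulated data. Sums and shares of FPKM were taken per library. Alternatives were pseudocounts of 0.1 and 1, no filter or a minimum mean of 5 FPKM, scaling by a trimmed mean (without 30% of the log ratios and 5% of the levels), quantile normalization, robust eBayes, chromosome medians subtracted, each library left out in turn, and, chosen after seeing the data, the highest row of a shared symbol. Positions came from the GENCODE annotation of GRCm38, and sequence windows from RefSeq (GRCm38.p6).

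The members, gene lists and tests were chosen with earlier results of these data known. Named genes are the inducible genes with their partners, every called member, the highest and lowest member of each subunit group, members without a row, up to 4 called genes per direction of the other lists by p, and Irf1, Nlrc5, Nfe2l1, Tap1, Tap2 and Erap1. Marker genes were named beside their lists. Some genes of this rule are not reported here.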

Additional observations from a re-analysis of the deposited data

How the results depend on the processing

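No paired analysis was possible because the value columns carry no replicate numbers. Members called higher numbered 11 with trimmed mean scaling, 6 with quantile normalization and 5 with chromosome medians subtracted, and 0 to 2 with a library left out. Those called lower numbered 4, 4 and 2, then 3 to 8, and 5 without the filter. The further pathway genes called lower numbered 5, 4 and 2 under the same 3 settings and 2 to 7 with a library left out, and those called higher 9, 9 and 7, then 3 to 4. The share of all genes called is not given here with chromosome medians subtracted, without the filter or with a library left out. Under these settings a changed count can therefore not be read as a trait of the members or of the further pathway genes. With a library left out the log2 fold change was 0.58 to 0.73 for Psmb8 and 0.99 to 1.67 for Psmb9, which was at 1.33 without the filter (adjusted p = 0.0723). Psme1 was called at 0.34 (trimmed mean) and 0.36 (quantile). Quantile normalization gave a Psmb8 share difference of 6.13 percentage points. Log2 ratios of summed FPKM under quantile and trimmed mean scaling were 0.13 and 0.18 (20S), -0.0433 and -0.0123 (19S) and 0.30 and 0.30 (PA28), and the 19S ratio was -0.18 to -0.0632 with a library left out. The sign of 5 uncalled values and 1 called value turned: Psmb7 (0.0827 trimmed mean, 0.0581 quantile, 0.0464 chromosome medians, -0.0702 to 0.0192 with a library left out), Psmg1 (0.0639, 0.0856, 0.0344, and -0.14 to 0.0556), Psmb1 (0.21), Psmg4 (0.10) and Tapbp (0.0145) with chromosome medians, and Tap2 (-0.00849 to 0.0879 with a library left out). Of 545 values for 42 other named genes, 395 kept their direction and side of the threshold, 126 lost the call, 11 gained it and 13 changed sign. The cause was not tested. With 2 libraries a group, leaving one out leaves a lone sample that is assumed to vary like the other group.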

Other observations

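Processed pseudogenes of the core subunits, which the rule left out by name, had 3 rows. Psmb7-ps2 was at 0.551 and 0.512 FPKM in Control and 0.306 and 0.193 FPKM in iRhom1 KO libraries, Psmb6-ps2 at 0.189 and 0.346 FPKM against 0.109 and 0.290 FPKM, and Psmb6-ps at 0.0141 FPKM or less in each library. Against the 54.2 to 84.1 FPKM of Psmb6 and Psmb7 in single libraries these were small levels.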
